A study of Mus musculus with 12 samples.

Results

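The 10 genes described here mark macrophages and microglia that take up and digest debris and handle lipid. They are Spp1, Apoe, Lpl, Lyz2, Lgals3, Trem2, Itgax, Gpnmb, Cd68 and Cst7, and they were picked by symbol from the 15672 genes of the deposited table. They were chosen with earlier results of these data known, so counts of them beside shares of all genes are a description only. Their RNA was measured by bulk RNA-seq in mouse medulloblastoma, a tumour of the cerebellum, taken at end point. YSGr tumours have the genotype fYap1;fSMO-M2;hGFAPcre, which adds a conditional (floxed) Yap1 allele to the genotype of the SG tumours, fSMO-M2;hGFAPcre. Both genotypes therefore share SMO-M2, a mutant of the receptor Smoothened that switches Hedgehog signalling on, and Cre recombinase driven by the human GFAP promoter, which is active in neural stem cells and astrocytes of the developing brain. Yap1 is a transcriptional coactivator restrained by the Hippo pathway. The labels call YSGr rescued without saying what was rescued, and give no age, dissection detail, animal number or batch. There were 6 YSGr libraries (females 10, 11 and 12, males 7, 8 and 9) and 6 SG libraries (females 4, 5 and 6, males 1, 2 and 3), so 3 in each of 4 groups. Whether each library is a separate animal is not stated, so the p-values speak only of the spread among these samples, some of which may be technical.

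Trem2 is a surface receptor that senses lipids and apolipoproteins, Apoe among them, and signals through the adaptor Tyrobp. In mouse models of neurodegeneration and demyelination, microglia that meet myelin debris, dying cells or amyloid lower their homeostatic genes and raise Apoe, Lpl, Cst7, Itgax, Gpnmb and Spp1, much of it in a Trem2-dependent way. Macrophages that enter the brain from blood carry many of the same genes, and Lyz2, Lgals3 and Spp1 are typical of them. In bulk tissue, fewer cells of a type and less RNA per cell cannot be told apart.

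Of the 10 genes, 4 stood clearly apart between the genotypes (Spp1, Lgals3, Gpnmb and Lyz2, by 3.54- to 6.65-fold in mean CPM), while Trem2 and Lpl had nearly equal means. The sequences around the transcription starts of these 4 genes are given because the genes moved together, and that of Trem2 because it did not move with them. Each line holds the 250 bases before the start and the first 30 after it, read 5′ to 3′ on the strand of the gene, from RefSeq on GRCm38.p6, the assembly that mm10 names. Capitals mark matches to the 6 motifs searched. The window of Lgals3 begins inside the gene as GENCODE M21 draws it (chromosome 14, 47367751 to 47386160), at an internal start site.
Gpnmb (chr6:49036268-49036547, plus strand): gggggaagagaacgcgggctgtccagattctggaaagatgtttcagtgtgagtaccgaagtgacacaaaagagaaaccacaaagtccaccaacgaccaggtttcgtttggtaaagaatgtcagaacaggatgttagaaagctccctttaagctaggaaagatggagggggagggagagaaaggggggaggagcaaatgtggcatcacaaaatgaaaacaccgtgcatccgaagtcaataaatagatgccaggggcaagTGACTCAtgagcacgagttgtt
Spp1 (chr5:104434861-104435140, plus strand): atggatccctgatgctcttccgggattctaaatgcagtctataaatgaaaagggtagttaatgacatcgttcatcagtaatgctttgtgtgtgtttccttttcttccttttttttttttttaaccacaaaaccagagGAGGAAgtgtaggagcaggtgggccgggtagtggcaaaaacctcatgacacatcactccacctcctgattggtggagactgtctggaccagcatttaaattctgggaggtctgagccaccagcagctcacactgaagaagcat
Lyz2 (chr10:117282243-117282522, minus strand): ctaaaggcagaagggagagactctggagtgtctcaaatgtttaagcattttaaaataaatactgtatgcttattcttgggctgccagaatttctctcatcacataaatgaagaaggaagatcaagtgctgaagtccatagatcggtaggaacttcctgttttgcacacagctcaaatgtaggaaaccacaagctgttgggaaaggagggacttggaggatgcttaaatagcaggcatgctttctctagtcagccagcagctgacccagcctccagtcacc
Lgals3 (chr14:47373610-47373889, plus strand): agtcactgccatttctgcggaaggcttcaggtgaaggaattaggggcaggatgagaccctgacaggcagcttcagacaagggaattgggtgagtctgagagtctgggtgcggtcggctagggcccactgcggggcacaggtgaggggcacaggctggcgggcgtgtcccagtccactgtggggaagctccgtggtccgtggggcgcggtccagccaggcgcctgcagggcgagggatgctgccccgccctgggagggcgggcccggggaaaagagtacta
Trem2 (chr17:48346151-48346430, plus strand): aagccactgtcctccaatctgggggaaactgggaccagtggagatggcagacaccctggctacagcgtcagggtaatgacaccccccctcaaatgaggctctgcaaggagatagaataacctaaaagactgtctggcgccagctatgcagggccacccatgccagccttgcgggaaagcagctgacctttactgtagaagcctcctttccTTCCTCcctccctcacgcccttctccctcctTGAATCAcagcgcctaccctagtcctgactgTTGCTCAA

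The motifs were searched on both strands in 300 bases (50 after the start) for the 9 of 10 genes with a window. Lpl is the gene without one, and where RefSeq lists several windows the first was used. The PU.1 core GAGGAA, bound by a factor that macrophages need, lay in 4 of 9 windows (Spp1, Cd68, Apoe and Trem2), and 28.3% of all 32851 windows hold it. The AP-1 motif TGANTCA lay in 5 of 9 (Gpnmb, Cd68, Trem2, Itgax and Cst7), against 7.81% of all windows. The C/EBP motif TTGCNNAA lay in 3 of 9 (Cd68, Trem2 and Cst7), against 10.8%, and in Cst7 it overlaps the AP-1 match. The E-box CACGTG, the M-box CATGTG and the NF-kB motif GGGNNTTCC lay in 0 of 9, against 7.15%, 14.2% and 5.82% of all windows. In the lines above Gpnmb and Spp1 hold 1 match each and Lyz2 and Lgals3 hold none, whereas Trem2, which did not differ past the threshold, holds 3. The motifs were chosen with earlier results of these data known, and the matches describe the letters in these windows, not binding.

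The libraries held 8854767 to 9478652 estimated reads, and 1 read was worth between 0.1003 and 0.111 CPM (log2 values turned back to counts scaled to a common library size). Some libraries stood apart in a principal component analysis. YSGr male 8 had the largest score on the first component (74.5, 38.3% of the variance). SG male 2 had a score of -57.0 on the third (12.3%), where no other library came near. YSGr females 10 and 12 scored -42.5 and -45.5 on the second (18%), the next lowest being YSGr male 9 at -14.3. YSGr female 12 scored -23.5 on the first, within the SG range of -44.5 to -12.3. The check of the targeted gene fitted the labels: Yap1 averaged 0.83 ± 0.77 log2 CPM in YSGr and 4.48 ± 0.18 in SG (SD, n = 6 each), with every YSGr library below every SG library. The 10 markers of granule neuron progenitors, the cells from which this tumour arises, averaged 8.39 log2 CPM in YSGr and 8.91 in SG, so the tissue label was met in both. All 10 macrophage genes were above 0 log2 CPM in every library, so all passed the filter on low values.

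Scaled to exon length, Apoe was the most abundant of the 10 at 923 CPM per kb in YSGr and 798 in SG. Lyz2 followed at 300.0 CPM per kb in YSGr and 84.8 in SG, and Cd68 was next at 61.0 in YSGr and 46.4 in SG. These 3 led in both genotypes, but the order behind them differed. In YSGr it ran Spp1 (43.1), Gpnmb (20), Cst7 (16.8), Lgals3 (8.54), Trem2 (5.57), Lpl (2.13) and Itgax (1.81 CPM per kb). In SG it ran Cst7 (9.91), Spp1 (6.48), Trem2 (5.67), Gpnmb (4.93), Lpl (2.05), Lgals3 (1.33) and Itgax (0.768 CPM per kb). Gpnmb and Lgals3 thus stood above Trem2 in YSGr and below it in SG. Many neighbours overlapped across libraries. In YSGr only the steps between Apoe and Lyz2, between Lyz2 and Cd68, and between Trem2 and Lpl were free of overlap. In SG, Cst7, Spp1, Trem2 and Gpnmb overlapped each with the next, as did Lgals3 with Itgax.

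**Figure D1:**
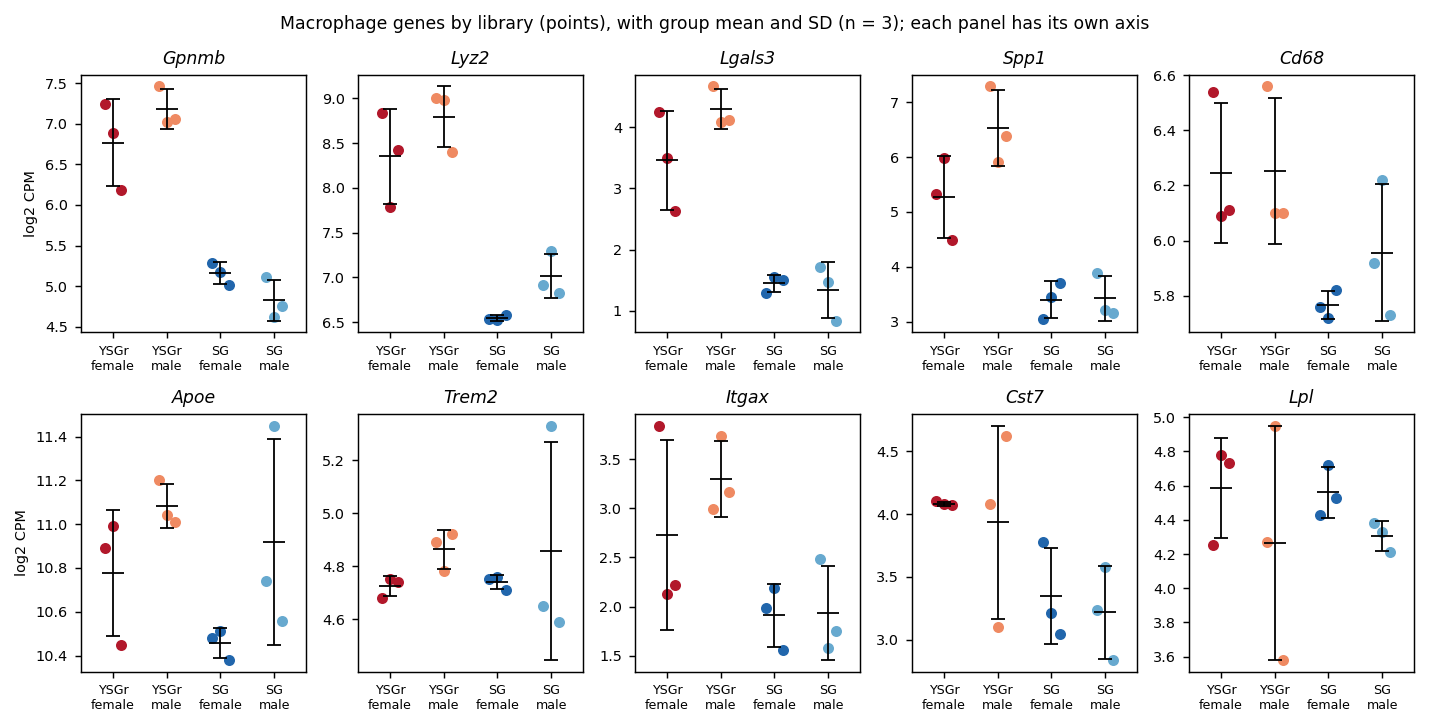
Log2 CPM of the 10 genes (vertical axis, 1 scale per panel) in each library (points) of YSGr females, YSGr males, SG females and SG males, with the group mean and SD (n = 3). Gpnmb, Lyz2, Lgals3 and Spp1 show no overlap between the 6 YSGr and the 6 SG points, and in the SG males 1 library (male 2) lies far above the others for Apoe and Trem2.

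Among the secreted proteins, Spp1 showed the largest fold difference in mean CPM of the 10. Spp1 encodes osteopontin, a phosphoprotein that binds integrins and Cd44 and that phagocytic macrophages release. Its level was 4.49, 5.95 and 7.29 log2 CPM (lowest, median and highest) in YSGr, against 3.04, 3.33 and 3.89 in SG. All 6 YSGr libraries lay above all 6 SG libraries. The log2 fold change was 2.49 ± 0.28 (SE, 95% interval 1.89 to 3.09) with an adjusted p of 0.00018 in limma, and mean CPM was 6.65-fold higher in YSGr. Lgals3 encodes galectin-3, a lectin that binds glycans exposed on damaged lysosomes and on cell surfaces. It measured 2.63, 4.11 and 4.67 log2 CPM in YSGr, against 0.84, 1.48 and 1.72 in SG. Its SG levels rest on 15 to 30 estimated reads per library, against 54 to 252 in YSGr. The groups did not overlap, and Lgals3 was higher in YSGr by 2.48 ± 0.26 on the log2 scale (adjusted p = 0.00012).

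Lyz2, the lysozyme of macrophages and neutrophils, cuts bacterial cell walls. It measured 7.79, 8.63 and 9.00 log2 CPM in YSGr, against 6.52, 6.71 and 7.29 in SG, again with no overlap. The difference was 1.79 ± 0.17 on the log2 scale (adjusted p = 6e-05). Its near-identical neighbour on chromosome 10, Lyz1, could share reads with it, and how such reads were split is not given in the sources used here. Lyz1 had 4 to 22 estimated reads per YSGr library and 3 to 6 per SG library, against 2117 to 5088 and 842 to 1406 for Lyz2. Lyz1 itself differed by 0.50 ± 0.31 (adjusted p = 0.31).

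The lipid carriers and enzymes of the set did not follow. Apoe, which carries cholesterol and other lipids between cells and is also made by astrocytes, measured 10.45, 11.00 and 11.20 log2 CPM in YSGr, against 10.38, 10.53 and 11.45 in SG. The groups overlapped, the highest value of all being SG male 2, and the difference of 0.24 ± 0.16 did not pass the threshold (adjusted p = 0.32). Without SG male 2 the difference in Apoe was 0.38 (adjusted p = 0.047). Lpl, the lipase that releases fatty acids from lipoprotein triglycerides, measured 3.58, 4.50 and 4.95 log2 CPM in YSGr, against 4.21, 4.41 and 4.72 in SG. The 2 YSGr extremes were male 9 (lowest) and male 8 (highest), outside the SG range on either side. The mean difference in Lpl was -0.01 ± 0.20 (95% interval -0.43 to 0.42, adjusted p = 0.99).

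Of the receptors, Trem2 had nearly the same level in both genotypes. It measured 4.68, 4.77 and 4.92 log2 CPM in YSGr, against 4.59, 4.73 and 5.33 in SG. SG male 2 again held the highest value, and the other 5 SG libraries lay between 4.59 and 4.76. The difference was 0.00 ± 0.13 with a 95% interval of -0.28 to 0.27 (adjusted p = 0.98), and without SG male 2 it was 0.11. A change in Trem2 of the size seen for Gpnmb or Lyz2 lay outside that interval. Itgax encodes CD11c, an integrin alpha chain of dendritic cells and activated macrophages that pairs with Itgb2. It measured 2.13, 3.08 and 3.84 log2 CPM in YSGr, against 1.56, 1.87 and 2.48 in SG. In 4 of 6 YSGr libraries it exceeded all SG libraries, while YSGr females 11 and 12 lay within the SG range. The fold change of 1.09 ± 0.30 passed the threshold (adjusted p = 0.034) but did so in only 4 of the 12 fits that leave out 1 library. The adjusted p was 0.064 when SG male 2 was dropped and 0.067 for SG male 3. It was 0.064, 0.055 and 0.092 when SG female 4, 5 or 6 was dropped. Dropping YSGr male 8 or 9 gave 0.071 and 0.053, and dropping YSGr female 10 gave 0.052, with log2 fold changes from 0.81 to 1.24 over the 12 fits.

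Among the proteins of the lysosome, Gpnmb, a membrane glycoprotein that loaded or stressed lysosomes induce, was the gene with the lowest p. It measured 6.18, 7.04 and 7.46 log2 CPM in YSGr, against 4.62, 5.06 and 5.29 in SG, and the groups did not overlap. The difference was 1.98 ± 0.17 (95% interval 1.62 to 2.34, adjusted p = 2.4e-05), the gene ranking 15 of 14147 by p. Cd68, a heavily glycosylated lysosomal membrane protein of macrophages, measured 6.09, 6.10 and 6.56 log2 CPM in YSGr, against 5.72, 5.79 and 6.22 in SG. YSGr male 7 and YSGr female 10 exceeded all SG libraries, the other 4 lay below SG male 2, and the difference of 0.39 ± 0.13 missed the threshold (adjusted p = 0.063). Without SG male 2 it was 0.45 (adjusted p = 0.026). Cst7 encodes cystatin F, an inhibitor of lysosomal cathepsins. It measured 3.10, 4.08 and 4.62 log2 CPM in YSGr, against 2.84, 3.23 and 3.78 in SG. In 5 of 6 YSGr libraries Cst7 exceeded all SG libraries, the exception being YSGr male 8. The difference was 0.72 ± 0.24 (adjusted p = 0.066), and without YSGr male 8 it was 0.93 (adjusted p = 0.0084).

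Counted together, 5 of the 10 genes were higher in YSGr at an adjusted p under 0.05 and 0 were lower in the limma fit, in which 7 of 10 had an unadjusted p under 0.05 (28.6% of all genes did). Of all 14147 genes tested, 6.16% were higher. The median log2 fold change was 0.90 over the 10 genes and 0.00 over all genes. In 4 of the 10 every YSGr library exceeded every SG library, as was so for 2.93% of all genes. Because the 10 genes were chosen with earlier results of these data known, these counts and shares do not test the set. Without SG male 2 and YSGr male 8, 7 of 10 were higher, since Cd68 (0.49), Apoe (0.39) and Cst7 (1.02) passed and Itgax (0.89) did not. That alternative was added after the data were seen. SG male 2 held the highest SG value of Apoe and of Cd68, and YSGr male 8 the lowest YSGr value of Cst7. Leaving them out therefore favoured these 3 calls. The share of all genes higher in it is not given here, so its counts are a description only.

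The series title is about differences between the sexes, so the genotype effect was also fitted in each sex. In YSGr females against SG females, 4 of 10 genes were higher and 0 lower, against 1.15% of all genes higher. In YSGr males against SG males, 4 of 10 were higher and 0 lower, against 4.43% of all genes higher. The same 4 genes passed in both: Gpnmb, Lyz2, Lgals3 and Spp1. Unadjusted p was under 0.05 for 6 of 10 genes in females (15.1% of all genes) and 5 of 10 in males (29.9% of all genes). The female and the male comparison share no libraries, but both come from 1 fit to all 12 libraries with 1 shared estimate of the spread. Their p-values are therefore not independent.

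Lyz2 differed almost equally in the sexes, by 1.80 ± 0.24 in females and 1.78 ± 0.24 in males. The other 3 had larger point estimates in males. Spp1 measured 5.33, 5.99 and 4.49 log2 CPM in YSGr females 10, 11 and 12, against 3.04, 3.45 and 3.71 in SG females 4, 5 and 6. It measured 7.29, 5.91 and 6.39 in YSGr males 7, 8 and 9, against 3.89, 3.22 and 3.16 in SG males 1, 2 and 3. The SG values of the sexes interleave, and 2 of 3 YSGr males lie above all YSGr females. The fold change of Spp1 was 1.87 ± 0.39 in females (adjusted p = 0.022) and 3.11 ± 0.39 in males (adjusted p = 0.0014), that is 3.98-fold and 9.25-fold in mean CPM. Gpnmb differed by 1.61 ± 0.24 in females (adjusted p = 0.0034) and 2.35 ± 0.24 in males (adjusted p = 0.00031). Lgals3 differed by 2.01 ± 0.36 in females (adjusted p = 0.011) and 2.95 ± 0.36 in males (adjusted p = 0.0014). In females 2 of these calls were lost when certain single libraries were left out. Over the 12 fits that leave out 1 library, the female fold change ran from 1.62 to 2.43 for Lgals3 and 1.51 to 2.26 for Spp1. All genes past the threshold in females fell from 426 to 166, 96, 94 and 136 without SG female 4, 5 or 6 or YSGr female 10. Lgals3 missed the threshold without SG female 4, 5 or 6 or YSGr female 10 (adjusted p 0.053 to 0.058), and Spp1 without any of these or YSGr female 11 (0.059 to 0.10), so 2 of 10 genes were higher in females without SG female 4, 5 or 6 or YSGr female 10.

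The difference between the sexes' effects did not pass for any of the 10 genes in limma (0 of 10, smallest adjusted p 0.43), against 0.00707% of all genes, which is 1 gene. At an unadjusted p under 0.05 there were 2 of 10, Spp1 and Gpnmb, both at 0.044, and 11.6% of all genes. The female effect minus the male effect was -1.24 for Spp1 (95% interval -2.43 to -0.04), -0.74 for Gpnmb (-1.46 to -0.02), -0.94 for Lgals3 (-2.06 to 0.17) and 0.02 for Lyz2 (-0.71 to 0.74). Within YSGr, 0 of 10 genes differed between females and males (0.0778% of all genes did), with 2 of 10 at an unadjusted p under 0.05 (18.1% of all genes). These were Spp1, at 5.27 ± 0.75 log2 CPM in females and 6.53 ± 0.70 in males (SD, n = 3 each; adjusted p = 0.16 in limma), and Lgals3, at 3.46 ± 0.81 in females and 4.30 ± 0.33 in males (adjusted p = 0.25 in limma). Spp1 did pass when YSGr female 11 was dropped (female minus male -1.62, adjusted p = 0.029). Within SG, 0 of 10 differed (0.0353% of all genes did), with 0 of 10 at an unadjusted p under 0.05 (1.83% of all genes). Residual Yap1 RNA in the YSGr libraries was at 0.25 ± 0.28 log2 CPM in females and 1.42 ± 0.60 in males (SD, n = 3 each; adjusted p = 0.14 in limma), on 7 to 33 estimated reads per library. This difference did not pass the threshold, and its part in the values by sex was not tested.

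**Figure D2:**
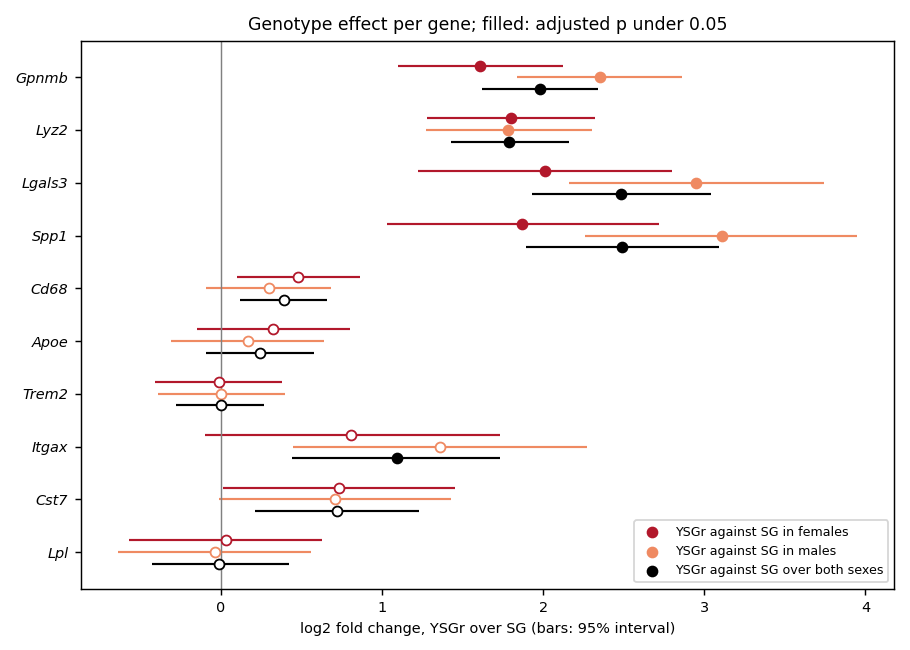
Log2 fold change of YSGr over SG (horizontal axis) with its 95% interval for the 10 genes in females, in males and over both sexes, with filled points where the adjusted p was under 0.05. Gpnmb, Lyz2, Lgals3 and Spp1 are filled in all 3 fits, from 1.61 to 3.11, and Trem2 and Lpl lie near 0 in all 3.

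Markers of macrophages and of other myeloid cells moved with the genotype as well. The counts below stand beside 6.16% of all genes higher and 5.27% lower over both sexes. The marker lists were chosen with earlier results of these data known, so these counts are a description only. In females 1.15% of all genes were higher and in males 4.43%, and whether the sexes differ in these marker lists was not tested. Of 16 general macrophage markers, 8 were higher in YSGr and 0 lower, with a median log2 fold change of 0.55 and a summed level of 809 to 1180 CPM in YSGr, against 604 to 837 in SG. The largest differences were in Fcer1g (1.5), Ptprc (1.37), Fcgr3 (1.35) and Itgam (0.84), whereas Csf1r, the growth factor receptor of the lineage, differed by 0.07 ± 0.11 (adjusted p = 0.72). Of 16 tested markers of monocytes and of infiltrating or border macrophages, 10 were higher and 0 lower (median 1.05), with summed levels of 57.9 to 86.6 CPM in YSGr and 35.9 to 50 in SG. However, 6 of these 16 passed the filter on low values only through YSGr libraries, so they had to be higher there, and the count and median are a description only. In females 1 of 16 was higher and in males 8. Ccr2, the chemokine receptor of inflammatory monocytes, had 106 estimated reads over the 6 YSGr libraries and 6 over the 6 SG libraries, and Chil3 had 61 in YSGr and 0 in SG. The border macrophage marker Mrc1 differed by 0.12 ± 0.21 (adjusted p = 0.74). Only 6 of 13 neutrophil markers were tested, and 5 of these 6 passed the filter only through YSGr libraries, so no count of calls is given for them. Their summed levels were 16.2 to 38.9 CPM in YSGr and 10.6 to 14.8 in SG. S100a9, with the largest log2 fold change of them, had 174 estimated reads in YSGr and 4 in SG. Csf3r had the most reads, 1031 in YSGr and 675 in SG, and Mmp8 and Ltf had 45 and 38 in YSGr and 0 in SG. Ly6g, Mpo, Elane, Camp and Ngp were not among the deposited genes. Only 5 of 11 dendritic cell markers were tested, and of these 3 were higher and 0 lower (median 1.42). Their summed levels were 47.9 to 122 CPM in YSGr and 18.9 to 30 in SG, free of overlap. Cd74 (3.83 ± 0.35, adjusted p = 4.8e-05) and H2-Aa (3.51 ± 0.53, 0.0014), both of antigen presentation by MHC class II and not restricted to dendritic cells, led them, followed by the cytokine receptor Flt3 (1.42 ± 0.35, 0.021). In females 2 of the 5 were higher and in males 3. Over both sexes Zbtb46 (adjusted p = 0.13 in limma) and Clec10a (0.22) did not pass. Cd74 had 2343 estimated reads in YSGr and 138 in SG. Of the untested markers, Batf3 had 15 estimated reads in YSGr and 26 in SG, and Clec9a had 10 and 8. Xcr1 had 11 and 2, Ccr7 had 35 and 3, and Itgae had 38 and 11. Cd209a was not among the deposited genes. Itgax is known as an integrin chain of dendritic cells too. Of the 16 general macrophage markers 2 were higher in females and 3 in males. Of 12 homeostatic microglia markers, 0 were higher and 1 was lower (Gpr34, -0.63 ± 0.15, adjusted p = 0.015), with a median of 0.03 that was -0.02 without YSGr male 7. Their summed level was 397 to 515 CPM in YSGr and 423 to 462 in SG. This list includes Trem2. Csf1r, Mrc1, Csf3r and the dendritic cell markers that were untested or did not pass were named after their values were seen. Without SG male 2 and YSGr male 8, 11 of 16 general and 9 of 16 monocyte markers were higher. In that fit 2 of 5 dendritic cell markers were higher, and 2 microglial markers were higher and 2 lower. These counts are a description only, as the share of all genes in that fit is not given here. Markers of granule neuron progenitors and of vessel cells were lower in part. Of 10 granule neuron progenitor markers 5 were lower and 0 higher (median -0.53), of 9 endothelial markers 4 were lower and 0 higher (-0.47), and of 10 pericyte, fibroblast and meningeal markers 3 were lower and 1 higher (-0.50). Differentiating granule neurons instead had 2 of 10 markers higher and 0 lower (median 0.59). Astrocytes and neural stem cells had 1 of 12 markers higher and 3 lower (median -0.3). The part that the numbers of these cells had in the differences of the 10 genes was not tested.

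**Figure D3:**
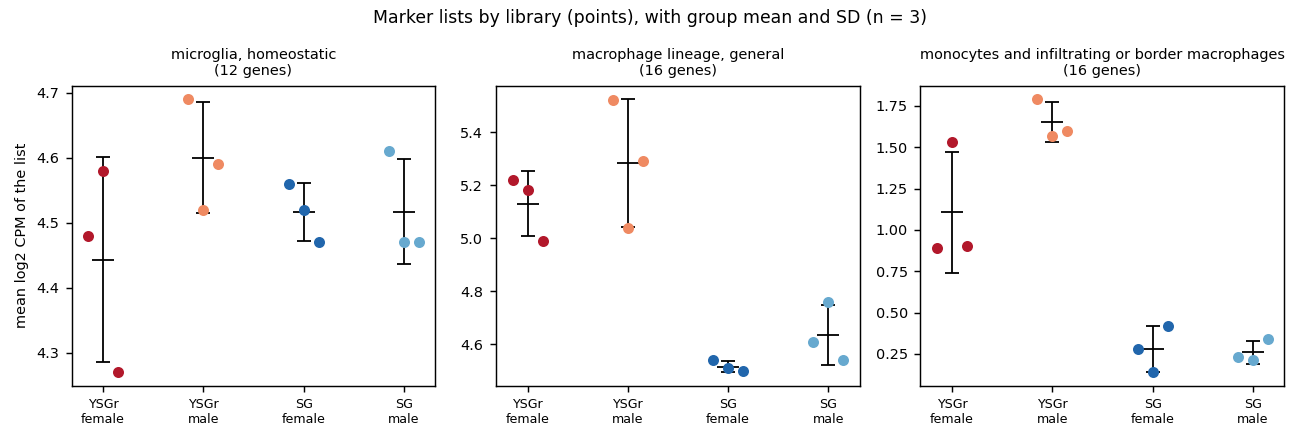
Mean log2 CPM of the tested genes of 3 marker lists (vertical axis, 1 scale per panel) in each library (points) of YSGr females, YSGr males, SG females and SG males, with the group mean and SD (n = 3). All YSGr points lie above all SG points for the general list and for the monocyte list, of which 6 of 16 genes passed the filter only through YSGr, and the groups overlap for the homeostatic microglia list.

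The 10 genes were therefore also given relative to the general macrophage markers, by centring each library on the mean of those 16 genes, an alternative added after the data were seen. The mean of the markers was 0.63 higher in YSGr than in SG on the log2 scale, so every gene shifts down by that amount and 69.1% of all genes were lower and 1.4% higher. On this scale 4 of 10 genes were higher and 3 lower. Spp1 (1.86 ± 0.24, adjusted p = 4.4e-05), Lgals3 (1.85 ± 0.23, 3.8e-05), Gpnmb (1.35 ± 0.15, 2.3e-05) and Lyz2 (1.16 ± 0.18, 0.00011) differed by more than the markers did. They did so in females too, by 1.26, 1.40, 1.00 and 1.19, and in males by 2.46, 2.30, 1.70 and 1.14. Itgax (0.46 ± 0.31, adjusted p = 0.19) and Cst7 (0.09 ± 0.21, 0.70) did not part from the markers past the threshold, nor did Cd68 (-0.24 ± 0.12, 0.077). Trem2 (-0.63 ± 0.14, 0.0011), Lpl (-0.63 ± 0.23, 0.024) and Apoe (-0.39 ± 0.14, 0.023) fell relative to the markers. The 3 lower genes stand beside 69.1% of all genes lower. On this scale Trem2 and Lpl lay at the median of all genes (-0.63), which is the shift itself. The lower calls are therefore a description only.

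Binding partners and substrates of the 10 proteins were followed next, with 6 of 33 tested genes higher in YSGr, 3 lower, and a median log2 fold change of 0.23. Of all genes 6.16% were higher and 5.27% lower. The partners were chosen with earlier results of these data known, so the counts are a description only. In females 1 of the 33 was higher and 1 lower, and in males 6 were higher and 1 lower. The partners of Trem2 did not pass: its adaptor Tyrobp differed by 0.31 ± 0.13 (adjusted p = 0.15), the kinase Syk by 0.50 ± 0.15 (0.055) and the phospholipase Plcg2 by 0.47 ± 0.18 (0.10). The integrin chains around Itgax rose, with Itgb2 at 0.72 ± 0.13 (adjusted p = 0.0039), Itgam at 0.84 ± 0.19 (0.014) and Itgal at 0.71 ± 0.20 (0.036). Among proteases that Cst7 can inhibit or that process its targets, Ctsc rose by 0.76 ± 0.14 (0.0044) and Ctsl by 0.38 ± 0.11 (0.037). Lgals3bp, a secreted glycoprotein bound by galectin-3, rose by 1.39 ± 0.15 (0.00018). Of 7 receptor chains of osteopontin 0 were higher over both sexes: Cd44 differed by 0.23 ± 0.12 (0.24) over both sexes, with -0.15 in females (0.79) and 0.61 in males (0.048), and the integrin chains Itgb1 (-0.45 ± 0.10, 0.013) and Itga9 (-0.55 ± 0.17, 0.049) fell. The Apoe receptor Lrp1 differed by 0.36 ± 0.18 (0.20) over both sexes, with -0.17 in females (0.86) and 0.89 in males (0.049). Near Lpl, Angptl2, a secreted relative of the Lpl inhibitor Angptl4, fell by 1.44 ± 0.11 (1.6e-05), and Angptl4 itself differed by -0.63 ± 0.27 (0.14). Mitf, Tfeb and Tfe3, transcription factors known to drive Gpnmb, differed by 0.38 ± 0.15 (0.12), -0.15 ± 0.18 (0.62) and -0.20 ± 0.08 (0.13).

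Wider lists of the same functions were counted in the same way, beside 6.16% of all genes higher and 5.27% lower. They too were chosen with earlier results of these data known, so their counts are a description only. Of 26 phagocytic receptors and bridging proteins, 12 were higher and 3 lower (median 0.61), led by the Fc receptor Fcgr2b (2.86 ± 0.33, adjusted p = 0.00021) and the endotoxin co-receptor Cd14 (1.88 ± 0.28, 0.0012). The 3 lower genes were the scavenger receptor Cd36 (-1.04 ± 0.30, 0.044), the bridging protein Mfge8 (-1.0 ± 0.17, 0.0026) and the engulfment factor Dock1 (-0.56 ± 0.14, 0.022), the last 2 named after their values were seen. Of 27 genes of lipid uptake, storage and efflux, 6 were higher and 2 lower, with a median of 0.12 that was -0.01 without SG male 1 and 0.21 without SG male 2 and YSGr male 8. The scavenger receptor Msr1 (1.5 ± 0.34, 0.014) and the lipid carrier Apod (1.48 ± 0.22, 0.0012) were higher, and the HDL receptor Scarb1 was lower (-0.86 ± 0.15, 0.0037). Cd5l, a secreted protein of lipid-loaded macrophages, had 203 estimated reads in YSGr and 42 in SG (1.97 ± 0.33). It counts among the 6 higher genes but passed the filter on low values only through YSGr. It therefore had to be higher there, and its value is a description only. Of 30 lysosome genes, 6 were higher and 0 lower (median 0.18), with the proton pump subunit Atp6v0d2 at 1.85 ± 0.37 (0.0066), Ctss at 0.96 ± 0.12 (5e-04) and the ceramidase Asah1 at 0.60 ± 0.14 (0.016). Of 23 other genes of disease-associated microglia, 7 were higher and 0 lower (median 0.31), among them Lilrb4a (1.35 ± 0.21, 0.0016), Ccl6 (1.27 ± 0.24, 0.0052) and Cd52 (1.27 ± 0.29, 0.015). Without SG male 2 and YSGr male 8 that count was 11 higher and 1 lower, with no share of all genes given here for that fit. By sex the counts were smaller, beside 1.15% of all genes higher in females and 4.43% in males. In females 3 of 26 phagocytic, 0 of 27 lipid, 1 of 30 lysosome and 0 of 23 disease-associated genes were higher, and in males 8, 5, 4 and 5. The phagocytic list had 2 genes lower in females and 1 in males, and the lipid list 0 in females and 1 in males. Whether the sexes differ in these lists was not tested. Of the tested genes, 1 phagocytic, 2 lipid (Cd5l among them), 2 disease-associated and 1 partner gene passed the filter on low values only through YSGr. Some genes stand on more than 1 list, and the difference between lists was not tested.

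**Figure D4:**
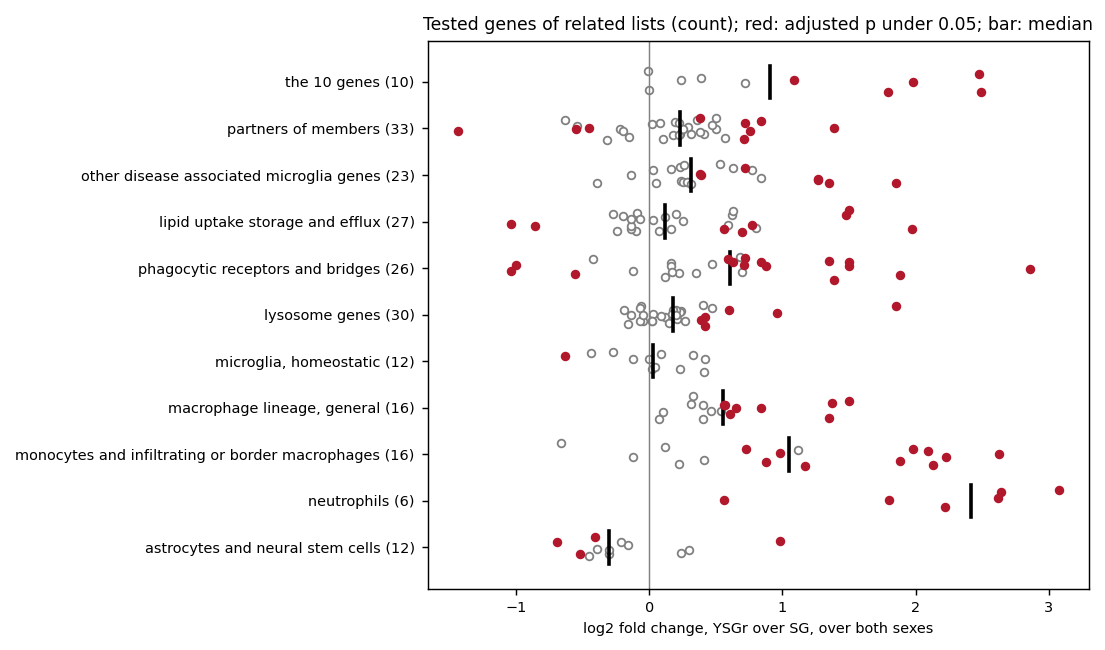
Log2 fold change of YSGr over SG over both sexes (horizontal axis) for each tested gene (points, red where the adjusted p was under 0.05) of the 10 genes, 5 related lists and 5 marker lists, with the median of each list as a bar. The median of the 10 genes is 0.90 and those of the 5 related lists run from 0.12 to 0.61, while 5 of the 6 neutrophil and 6 of the 16 monocyte genes passed the filter only through YSGr libraries.

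Libraries of 1 group also varied among themselves. YSGr male 7 held the highest YSGr value for 6 of the 10 genes and also the highest summed level of the general macrophage markers (1180 CPM), and YSGr female 12 held the lowest YSGr value for 4 genes and the lowest such sum (809 CPM). SG male 2 held the highest SG value for 4 genes and the highest such sum among SG (837 CPM). Deviations from the 4 group means were compared over the 12 libraries as a description. These share depth and scaling, and the 3 libraries of a group leave few free values. Of 45 gene pairs, 10 had a Pearson r above 0.5 and 1 below -0.5, with a median of 0.22. Gpnmb and Lgals3 went together (r = 0.85, Spearman rho = 0.66, r = 0.57 without YSGr females 10 and 12, which lay farthest out in Gpnmb). Spp1 went with both, at r = 0.66 with Gpnmb and r = 0.66 with Lgals3, and had 0.66 and 0.71 without those libraries. The libraries farthest out in Spp1, YSGr male 7 and YSGr female 11, were not left out of these pairs. Lyz2 went with Cd68 (r = 0.72, rho = 0.66, r = 0.65 without YSGr females 10 and 11) and little with Gpnmb or Spp1 (r = -0.24 with Spp1). Apoe and Trem2 had r = 0.82 and rho = 0.64, but r = 0.33 without SG males 2 and 3, so the relation rests largely on those libraries. The negative relation of Cst7 and Lpl (r = -0.75, rho = -0.52) was at -0.09 without YSGr males 8 and 9.

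**Figure D5:**
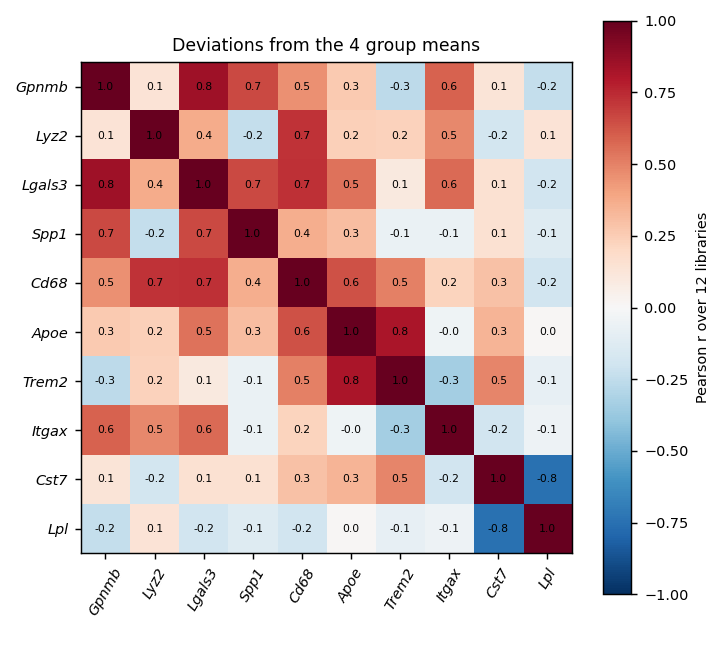
Pearson r (colour and number) between the deviations of each pair of the 10 genes from the 4 group means over 12 libraries. Gpnmb, Lgals3 and Spp1 form a positive block (0.66 to 0.85), Apoe with Trem2 is at 0.82, and Cst7 with Lpl is the strongest negative pair at -0.75.

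Among 12854 genes with a mean above 1 log2 CPM, those whose deviations were most like the members' were picked as a description by Pearson r over the same 12 libraries. For Spp1 the first was Csf2rb (r = 0.96), a cytokine receptor chain that itself rose by 1.46 in YSGr (adjusted p = 0.0014). For Lgals3 it was Lcp1 (r = 0.94), an actin-bundling protein of blood cells that rose by 0.59 (adjusted p = 0.0058), and for Itgax it was Pik3cd (r = 0.93), a leukocyte lipid kinase that rose by 0.91 (adjusted p = 0.0069). For Gpnmb it was Krba1 (r = 0.97), for Lyz2 Snx5 (r = 0.97), for Cd68 Vars (r = 0.97) and for Trem2 Usf2 (r = 0.99), none of which differed past the threshold between the genotypes. For Apoe the first was Kri1 (r = 0.97) and for Cst7 1810055G02Rik (r = 0.95), neither of which differed past the threshold.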

How the data were processed

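The authors deposited 1 table of log2 CPM with 15672 genes and 12 libraries. The labels name total RNA and the BGISEQ-500 sequencer. Per the submitters' processing notes, the build was mm10 and the tools were edgeR 3.30.3, RSEM 1.2.12, Bowtie2, Picard 1.95 and Trimmomatic 0.33. What each did, the annotation, the use of strand and the prior count: not given in the sources used here. Values turned back from log2 lie on equal steps per library. Reads estimated from these steps were whole within 0.02 for 92.1 to 93.1% of genes, and the lowest value was -2.24 in every library, so fold changes of low genes are understated. Libraries held 8854767 to 9478652 estimated reads.

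The 10 genes, the lists and the motifs were chosen with earlier results of these data known. All 10 and all partner genes may be named. From each other list, the genes past the threshold with the largest change were named, up to 5 per functional list and 4 per marker list, filled up with abundant ones, besides markers at 0 and the 3 genes most like each of the 10.

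Tests used limma 3.58.1 in R 4.3.3 on the deposited values: 1 coefficient per group over all 12 libraries, eBayes with trend, two-sided, Benjamini-Hochberg adjustment over 14147 genes (log2 CPM above 0 in at least 3 libraries), threshold 0.05. The procedure was tested on simulated data. Lists were counted, not tested. Exon lengths and gene positions are from GENCODE M21 (99.6% of symbols matched). Alternatives covered the filter, pseudocount, normalization, trend, library weights, voom on estimated reads, a fit without sex and each library left out. Results that name items withheld for evaluation are not reported here.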

Additional observations from a re-analysis of the deposited data

Results flagged for a closer look

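With 10 genes in 2 genotypes, 20 groups of 6 libraries were screened for a library far from the rest (gap over range above 0.625, which chance gives in about 1 in 20 groups), and 3 stood out. Apoe in SG male 2 was 11.45 log2 CPM, the remaining SG libraries holding 10.38 to 10.74. Trem2 in the same library was 5.33, against 4.59 to 4.76. Cst7 in YSGr male 8 was 3.10, against 4.07 to 4.62 in the other YSGr libraries. SG male 2 is also alone on the third principal component (-57.0) and holds the highest summed general macrophage markers of SG (837 CPM), and YSGr male 8 lies farthest out on the first (74.5). Their part in these values was not tested. For none of the 10 genes did the genotype effect differ between the sexes at an adjusted p under 0.05 in limma (2 of 10 at an unadjusted p under 0.05, as for 11.6% of all genes).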

How the results depend on the processing

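Over both sexes Gpnmb, Lyz2, Lgals3 and Spp1 stayed higher past the threshold in all 24 alternatives, from 1.35 to 2.13, 1.16 to 2.04, 1.85 to 2.81 and 1.86 to 2.68 on the log2 scale, and Itgax in 14 of 24. In males these 4 passed in all 23 alternatives, and in females Gpnmb and Lyz2 did, Lgals3 in 19 and Spp1 in 18. Of 585 recomputed values of single genes, 534 kept direction and side of the threshold. Leaving out each library gave 4 to 6 genes higher over both sexes, 2 to 4 in females and 4 to 5 in males, and 0 to 1 lower in YSGr females than males (Spp1). All genes past the threshold then numbered 903 to 2087 (1617 with all libraries), 94 to 785 in females (426) and 289 to 1665 in males (1111), and 1 to 115 for the difference of effects (1); the lowest counts came without SG female 6 (903 and 94) and YSGr male 8 (289), and 115 without YSGr female 11.

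Library weights, lowest for SG male 2 (0.10), YSGr female 11 (0.27) and YSGr male 8 (0.28), gave 8, 8 and 7 genes higher over both sexes, in females and in males, and 1 lower in YSGr females than males. All genes past the threshold were then 4986, 4483, 2326 and 675 in those 3 fits and for the difference of effects. Trem2 was then 0.10 and the difference of effects for Itgax 0.65, with Trem2 unpassed. Values near 0 changed sign: leaving out each library, Trem2 ran from -0.07 to 0.11, Lpl from -0.18 to 0.17 and the difference of effects for Lyz2 from -0.23 to 0.30, and the last was -0.12 after quantile normalization. Without SG male 2 and YSGr male 8 together, Trem2 was 0.13, that difference for Lyz2 -0.03, and 1267 genes passed in females and 247 in males. Centring on general macrophage markers moved the median of all genes to -0.63, gave 9974, 6733 and 7811 genes past the threshold and 3, 1 and 1 of the 10 lower, and turned Cd68 to -0.24 and Apoe to -0.39. The causes were not tested.

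No paired analysis was possible because the library numbers run from 1 to 12 without repeats. With 3 libraries per group, differences between the sexes are bounded only widely, and Lgals3 in SG rests on few reads. Intervals cover the spread between these libraries.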
